A study of Mus musculus with 24 samples.

Results

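Transcript levels of 10 immediate early genes, *Fos*, *Fosb*, *Fosl1*, *Fosl2*, *Jun*, *Junb*, *Jund*, *Egr1*, *Nr4a1* and *Ier2*, were described across 4 tissues of mice with and without *Crif1* in the liver. The 10 were taken by symbol from a table of 24532 genes, and all 10 were found. They had been picked because of the direction of their difference between genotypes in each tissue, so that difference is given below as a description without a test.

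RNA-seq had been carried out on liver, inguinal white adipose tissue (iWAT), gastrocnemius muscle (GM) and hypothalamus of C57BL/6 mice at 8 weeks of age, with 3 libraries for each tissue and genotype, 24 in all. Control (Ctrl) mice carried the floxed allele (Crif1flox/flox) without Cre, and liver-specific knockout (LKO) mice were Alb-Cre;Crif1flox/flox, in which the albumin promoter drives Cre in hepatocytes. The Ctrl mice therefore differed from LKO mice in Cre as well as in *Crif1*. The labels do not tie the 4 tissues to individual mice or say whether the 3 libraries of a group are separate animals, and an SE or p-value then measures only the spread between these libraries. *Crif1*, listed as *Gadd45gip1*, was 14.6, 12.53 and 13.6 FPKM (fragments mapped to a gene, scaled by transcript length and by the total mapped) in Ctrl liver and 5.40, 2.002 and 2.51 FPKM in LKO liver. Its groups overlapped in iWAT, GM and hypothalamus.

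Immediate early genes are transcribed within minutes of a signal at the cell surface, without new protein having to be made first, and their mRNAs are short-lived. FOS family proteins pair with JUN family proteins to form AP-1, a transcription factor that binds the AP-1 site and the closely related cAMP response element (CRE). *Egr1* encodes a zinc-finger transcription factor, *Nr4a1* an orphan nuclear receptor, and *Ier2* a nuclear protein. In liver these genes are known for their early activation after partial hepatectomy, in brain as marks of neuronal activity, and in muscle for their response to contraction.

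The libraries held 4.45 to 8.09 gigabases with a median of 5.19, as calculated from the ratio of coverage to FPKM, and in liver 5.42 to 8.09 in Ctrl and 4.70 to 5.535 in LKO. Pearson correlations between libraries of a group were 0.983 to 0.997, and no correlation between tissues exceeded 0.854. Summed hepatocyte, adipocyte, muscle and neuron markers were each detected in the tissue whose name they carry, without a marker of these lists at 0. That does not show purity, since such markers were also detected elsewhere. Hepatocyte markers summed to 840 to 2107 FPKM in iWAT and 19.0 to 274 FPKM in GM, and muscle markers to 38.8 to 934 FPKM in iWAT. Over the 10956 genes tested in the liver, the median difference between LKO and Ctrl was 0.33 on the log2(FPKM + 1) scale, and it was −0.04 after scaling libraries by their median ratio. Liver differences are given without this shift removed unless median-ratio scaling is named. In the other tissues the median lay within 0.03 of 0.

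Of the 10 genes, 7 had an entry in the set of promoters used here (GRCm38.p6). The 250 bases before the start of 5 of them are shown because *Fos*, *Jun*, *Junb* and *Fosl2* stood apart between genotypes in liver at levels above 1 FPKM in every LKO library and *Nr4a1* was by far the highest of the 10 in GM. Capitals mark, on either strand, the CRE half-site (TGACG), the AP-1 site (TGANTCA), the 8-base site TGACNTCA, the GC box (GGGCGG), the TATA box (TATAAA) and the CArG box, and overlapping matches run together. The windows are chr12:85473640-85473889 (plus strand) for *Fos*, chr4:95052223-95052472 (minus strand) for *Jun*, chr8:84978749-84978998 (minus strand) for *Junb*, chr5:32136222-32136471 (plus strand) for *Fosl2* and chr15:101266596-101266845 (plus strand) for *Nr4a1*. The RefSeq span of *Nr4a1* begins upstream of its window, at chr15:101253902, so the window does not precede its first start.
Fos: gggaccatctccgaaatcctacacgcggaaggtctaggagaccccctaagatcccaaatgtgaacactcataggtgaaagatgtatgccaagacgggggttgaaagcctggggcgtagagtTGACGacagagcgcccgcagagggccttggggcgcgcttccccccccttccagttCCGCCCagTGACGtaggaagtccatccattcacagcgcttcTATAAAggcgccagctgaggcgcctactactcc
Jun: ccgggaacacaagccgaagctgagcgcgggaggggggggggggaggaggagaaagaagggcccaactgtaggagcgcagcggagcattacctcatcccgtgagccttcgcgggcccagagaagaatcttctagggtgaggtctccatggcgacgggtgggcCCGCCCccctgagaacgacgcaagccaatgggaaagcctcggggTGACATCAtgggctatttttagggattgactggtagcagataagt
Junb: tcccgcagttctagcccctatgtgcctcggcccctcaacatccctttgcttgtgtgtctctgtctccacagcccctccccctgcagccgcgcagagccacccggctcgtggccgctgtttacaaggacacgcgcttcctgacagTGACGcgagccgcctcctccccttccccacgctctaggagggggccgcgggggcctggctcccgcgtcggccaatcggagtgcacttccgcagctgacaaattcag
Fosl2: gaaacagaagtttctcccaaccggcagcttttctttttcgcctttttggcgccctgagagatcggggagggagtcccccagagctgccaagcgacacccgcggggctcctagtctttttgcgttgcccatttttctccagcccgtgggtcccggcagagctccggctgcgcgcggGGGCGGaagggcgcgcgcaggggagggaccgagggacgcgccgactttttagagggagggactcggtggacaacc
Nr4a1: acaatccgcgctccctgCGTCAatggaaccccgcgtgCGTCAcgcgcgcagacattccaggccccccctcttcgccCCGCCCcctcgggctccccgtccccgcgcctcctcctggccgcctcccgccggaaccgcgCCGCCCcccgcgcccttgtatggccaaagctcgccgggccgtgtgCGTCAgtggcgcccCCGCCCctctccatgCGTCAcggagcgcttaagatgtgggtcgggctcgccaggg

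A CRE half-site was found in 4 of the 7 promoters, those of *Fos*, *Fosb*, *Junb* and *Nr4a1*, and in 17.8% of the 32851 promoters in the table. *Nr4a1* held 4 of them, the last of which ended 36 bases before the start, and *Fos* held 2, of which the nearer ended 62 bases before the start. *Jun* was the only one of the 7 with the 8-base site, written TGACATCA and ending 38 bases before its start, against 7.49% of all promoters. A GC box was present in 5 of the 7, against 32.7% of all. *Fos* alone of the 7 held a TATA box in these letters (12.4% of all). No AP-1 site or CArG box was matched in the 7 windows, and 6.75% and 1.47% of all promoters held one. Matches are a description of letters in these windows.

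In the liver, 6 of the 10 genes had all 3 LKO libraries above all 3 Ctrl libraries, none had them below, and 4 overlapped. LKO lay above Ctrl in this sense for 53% of all genes tested and below for 8.1%. Such shares, here and in the other tissues, cover only genes of at least 1 FPKM in 3 of 6 libraries. Of the 10 genes, 8 met that limit in liver and 5 of these lay above, which is not far from 53%. The 6 of the 10 that lay above were *Fos*, *Fosb*, *Fosl2*, *Jun*, *Junb* and *Egr1*. The median log2 difference of the 10 genes was 1.28, or 0.94 after median-ratio scaling, beside the 0.33 and −0.04 of all genes. After median-ratio scaling the log2 differences of the 5 of these genes that entered the fit were 1.27 for *Fos*, 0.88 for *Fosl2*, 1.97 for *Jun*, 0.99 for *Junb* and 2.47 for *Egr1*. Of these, *Fos* entered it only through LKO.

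Among the FOS genes, *Fos* (NCBI gene 14281; chr12:85473901-85477270, plus strand, in the mm10 positions of the files) was 0.171, 0.155 and 0.395 FPKM in Ctrl liver. It was 2.40, 1.98 and 2.905 FPKM in LKO liver, a ratio of means of 10.1 and a log2(FPKM + 1) difference of 1.46 ± 0.14 (SE, n = 3 each). The 2 groups were far apart, although the mean coverage of *Fos* in Ctrl liver was only 0.864 to 2.14 reads per base. *Fos* was under 1 FPKM in every Ctrl liver and entered the liver fit only through LKO, where it had to be higher. *Fosl2* (chr5:32136472-32157839, plus strand), which encodes FRA-2, was 1.06, 0.956 and 1.04 FPKM in Ctrl and 2.83, 3.64 and 4.28 FPKM in LKO, with a log2 difference of 1.17 ± 0.14 (SE). The 3 Ctrl libraries of *Fosl2* were almost equal, and every LKO library was well above them. *Fosb* (chr7:19302696-19310045, minus strand) stayed under 0.2 FPKM in all 6 liver libraries, at 0.0132, 0.0182 and 0.0395 in Ctrl and 0.192, 0.107 and 0.0802 in LKO. *Fosl1* (chr19:5447698-5455938, plus strand), which encodes FRA-1, was listed at 0 in the 3 Ctrl livers and in 1 LKO liver, and at 0.132 and 0.0686 FPKM in the other LKO livers. Both genes were below the limit of 1 FPKM in 3 of 6 libraries and entered no fit in the liver.

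Among the JUN genes, *Jun* (chr4:95049036-95052222, minus strand) was 2.36, 6.51 and 2.77 FPKM in Ctrl liver and 16.9, 24.5 and 27.1 FPKM in LKO liver. The log2 difference was 2.36 ± 0.32 (SE), with Ctrl replicate 2 higher than the other Ctrl livers but still well under every LKO liver. *Junb* (chr8:84976909-84978748, minus strand) was 6.45, 4.63 and 6.19 FPKM in Ctrl and 18.4, 15.8 and 15.6 FPKM in LKO, a log2 difference of 1.39 ± 0.14 (SE). Its LKO libraries lay close together, and the ratio of means, 2.88, was smaller than that of *Jun*, 5.89. *Jund* (chr8:70697739-70700616, plus strand) was 0.895, 0.643 and 23.4 FPKM in Ctrl and 0.776, 51.1 and 59.6 FPKM in LKO. The spread of *Jund* within each genotype was so wide that it is described separately below.

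*Egr1* (chr18:34861207-34864956, plus strand) had the largest liver difference of the 10, at 2.51, 1.25 and 1.68 FPKM in Ctrl and 21.5, 15.4 and 19.2 FPKM in LKO. The log2 difference was 2.82 ± 0.20 (SE) and the ratio of means 10.3. *Nr4a1* (chr15:101266846-101274794, plus strand) was 1.99, 0.480 and 0.709 FPKM in Ctrl and 1.78, 2.45 and 2.57 FPKM in LKO. Its groups overlapped because Ctrl replicate 1 was above LKO replicate 1, and the log2 difference was 0.73 ± 0.26 (SE), or 0.47 after median-ratio scaling. *Ier2* (chr8:84661331-84662852, minus strand) was abundant and alike in both genotypes, at 18.1, 17.9 and 15.3 FPKM in Ctrl and 17.8, 17.4 and 18.6 FPKM in LKO. Its log2 difference was 0.07 ± 0.11 (SE), and the sign turned to −0.35 after median-ratio scaling, with all 3 LKO libraries then below the Ctrl libraries, whereas with TPM they lay above.

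Markers of non-parenchymal cells differed in the same liver libraries. Summed Kupffer cell markers were 93.4 to 97.5 FPKM in Ctrl and 205 to 326 FPKM in LKO, with all 5 markers above. Macrophage and monocyte markers were 20.3 to 21.9 FPKM and 47.3 to 85.7 FPKM, with all 6 above, and cholangiocyte markers 30.7 to 31.8 FPKM and 41.6 to 88.9 FPKM, with all 5 above. Neutrophil markers were 0.934 to 1.42 FPKM and 7.28 to 9.46 FPKM, with 2 of 6 above in every LKO library. Hepatocyte markers summed to 58780 to 61810 FPKM and 42520 to 68320 FPKM, with 3 of 6 below in every LKO library and none above. Endothelial markers were 24.3 to 28.7 FPKM and 32.5 to 51.7 FPKM, with 3 of 5 above. Their part in the liver values of the immediate early genes was not tested, and in whole tissue fewer cells of a type and less RNA per cell cannot be told apart.

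**Figure D1:**
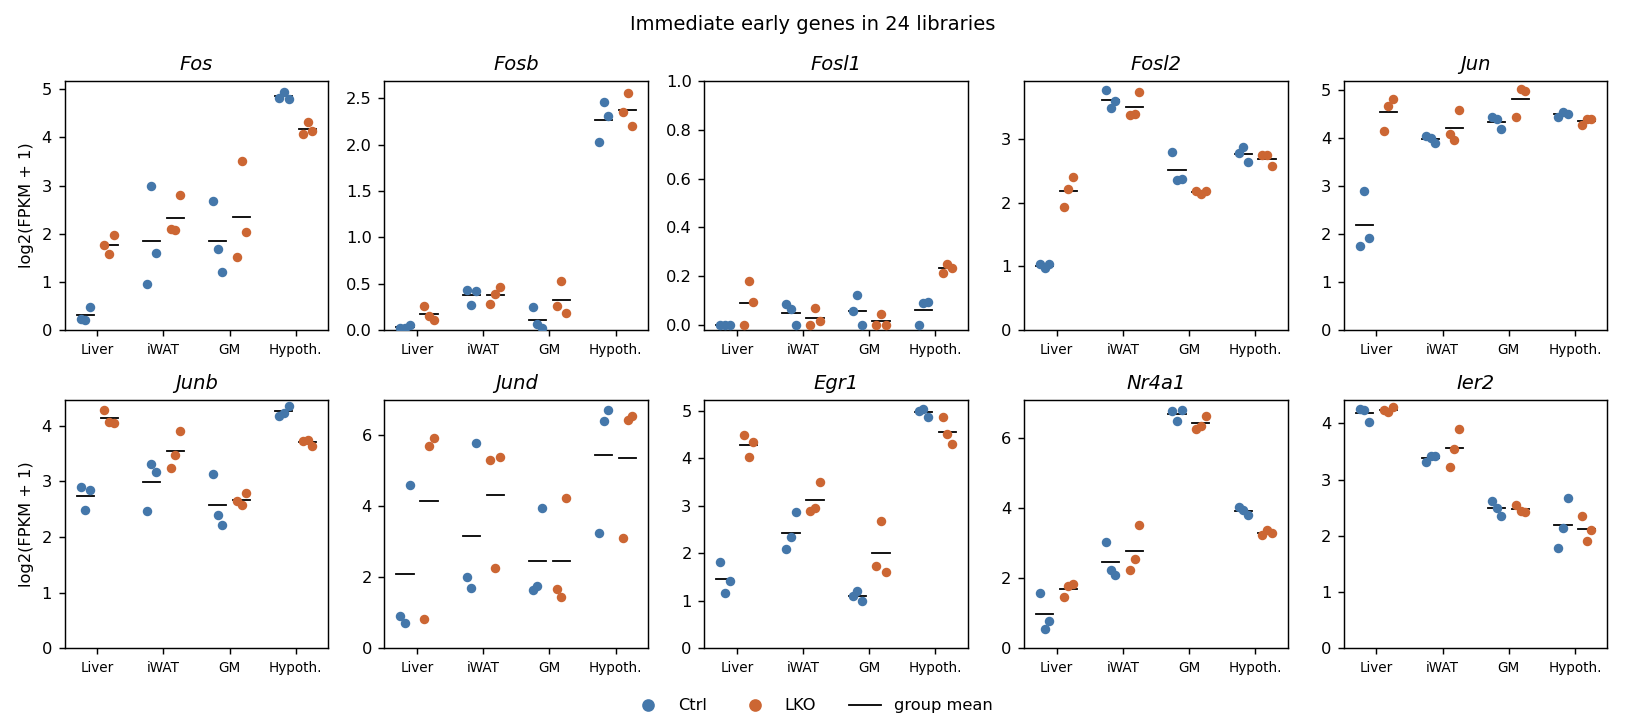
Level of each of the 10 genes in each of the 24 libraries, as log2(FPKM + 1), by tissue, with Ctrl in blue, LKO in orange and the group mean as a black line. *Fos*, *Fosl2*, *Jun*, *Junb* and *Egr1* are separated upwards in LKO liver, *Fos*, *Junb* and *Nr4a1* downwards in LKO hypothalamus, and *Jund* is split within groups.

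In the hypothalamus the picture was the opposite for several of the same genes. All LKO libraries were below all Ctrl libraries for 5 of the 10, *Fos*, *Jun*, *Junb*, *Egr1* and *Nr4a1*, while *Fosl1* was above and 4 overlapped. Over all 13828 genes tested in this tissue, LKO was below in 4.97% and above in 4.74%. The median difference of the 10 was −0.12, beside −0.01 for all genes.

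*Fos* was 27.3, 29.6 and 26.9 FPKM in Ctrl hypothalamus and 15.9, 18.9 and 16.6 FPKM in LKO hypothalamus, a log2 difference of −0.68 ± 0.08 (SE). *Nr4a1* was 15.2, 14.3 and 12.9 FPKM in Ctrl and 8.33, 9.37 and 8.73 FPKM in LKO, a log2 difference of −0.63 ± 0.08 (SE). For both genes the lowest Ctrl library was well clear of the highest LKO library. *Junb* was 17.1, 17.8 and 19.6 FPKM in Ctrl and 12.3, 12.3 and 11.5 FPKM in LKO, with a log2 difference of −0.56 ± 0.07 (SE). *Egr1* was 30.9, 31.7 and 28.2 FPKM in Ctrl and 28.0, 21.7 and 18.7 FPKM in LKO, with LKO replicate 1 almost at the level of Ctrl replicate 3. *Jun* was 20.7, 22.4 and 21.8 FPKM in Ctrl and 18.5, 20.1 and 20.2 FPKM in LKO, a difference of −0.14 ± 0.06 (SE) on the log2 scale. *Jun* and *Egr1* no longer separated when the deposited TPM, in which the values of each library are scaled to a common sum, was used in place of FPKM, leaving 3 of the 10 below.

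*Fosb* reached the limit of 1 FPKM only in this tissue, at 3.09, 4.51 and 3.94 FPKM in Ctrl and 4.09, 4.89 and 3.61 FPKM in LKO, and its groups overlapped. Unlike *Fos*, its log2 difference was positive, 0.10 ± 0.14 (SE). *Fosl1* was 0, 0.0659 and 0.0665 FPKM in Ctrl and 0.160, 0.191 and 0.177 FPKM in LKO, with a mean coverage of at most 1.18 reads per base, and entered no fit. *Fosl2* differed by −0.07 and *Ier2* by −0.08, with overlapping groups.

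The hypothalamus libraries also differed in tissue that adjoins it. Summed pituitary markers were 7.45 to 53.7 FPKM in Ctrl and 131 to 591 FPKM in LKO, with 5 of 6 markers above in every LKO library and none at 0. Endothelial markers were 28.6 to 32.7 FPKM and 23.7 to 27.0 FPKM, with 4 of 5 below. Neuron markers were 1403 to 1490 FPKM and 1412 to 1429 FPKM, with 1 of 6 below. Markers of hypothalamic neurons were 1383 to 1794 FPKM and 1785 to 1853 FPKM, with 2 of 6 above and none below. Their part in the lower values of *Fos*, *Junb* and *Nr4a1* was not tested.

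In iWAT, *Egr1* was the only gene of the 10 with all LKO libraries above, at 6.45, 6.76 and 10.3 FPKM against 3.24, 4.05 and 6.29 FPKM in Ctrl, and the other 9 overlapped. LKO was above Ctrl for 9.76% of all 12288 genes tested and below for 11%. The log2 difference of *Egr1* was 0.69 ± 0.24 (SE), and its lowest LKO library exceeded the highest Ctrl library by less than 0.2 FPKM. *Fos* was 0.949, 6.898 and 2.02 FPKM in Ctrl and 3.26, 3.24 and 5.96 FPKM in LKO. The Ctrl library with the highest *Fos* of the 6, replicate 2, was also the Ctrl library with the highest *Junb*, which was 4.56, 8.87 and 7.98 FPKM in Ctrl and 8.45, 10.1 and 13.97 FPKM in LKO and separated upwards after median-ratio scaling. *Jun*, *Nr4a1* and *Ier2* were highest in LKO replicate 3, as was *Egr1*. *Fosl2*, at 9.43 to 12.7 FPKM over the 6 libraries, differed by −0.12 ± 0.13 (SE).

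Markers of several cell types also differed in iWAT. Neutrophil markers summed to 2.19 to 3.38 FPKM in Ctrl and 8.65 to 20.3 FPKM in LKO, with 3 of 6 above, and endothelial markers to 126 to 148 FPKM and 187 to 243 FPKM, with 3 of 5 above. Summed adipocyte markers were 21490 to 25330 FPKM in Ctrl and 26600 to 27860 FPKM in LKO, with 3 of 6 above and 1 below. Their part in the *Egr1* value was not tested.

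In GM, *Jun* and *Egr1* were above, *Fosl2* was below and 7 genes overlapped. LKO was above Ctrl for 4.38% and below for 7.2% of all 10877 genes tested. *Jun* was 20.8, 20.2 and 17.2 FPKM in Ctrl and 20.9, 31.7 and 30.8 FPKM in LKO, so that the lowest LKO library was separated from the highest Ctrl library by little more than 0.1 FPKM. The log2 difference of *Jun* was 0.48 ± 0.16 (SE). *Egr1* was 1.14, 1.29 and 0.990 FPKM in Ctrl and 2.31, 5.45 and 2.04 FPKM in LKO, a log2 difference of 0.91 ± 0.27 (SE), with LKO replicate 2 the highest. That library also had the highest *Fos*, 10.4 FPKM, against 1.88 and 3.08 FPKM in the other LKO muscles and 5.43, 2.19 and 1.31 FPKM in Ctrl. *Fosl2* was 5.95, 4.14 and 4.21 FPKM in Ctrl and 3.54, 3.42 and 3.55 FPKM in LKO, a log2 difference of −0.34 ± 0.13 (SE). *Nr4a1* was 108.5, 87.3 and 108.7 FPKM in Ctrl and 75.8, 79.3 and 98.1 FPKM in LKO, and overlapped.

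The separation of *Jun* in GM was lost under median-ratio scaling, which left 1 gene above. Summed adipocyte markers in GM ranged from 243 to 543 FPKM in Ctrl and from 269 to 710 FPKM in LKO, and overlapped. Macrophage and monocyte markers did not, at 10.45 to 11.85 FPKM in Ctrl and 12.27 to 20.6 FPKM in LKO, with 2 of 6 above in every LKO library, and their part in the *Egr1* and *Jun* values was not tested.

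**Figure D2:**
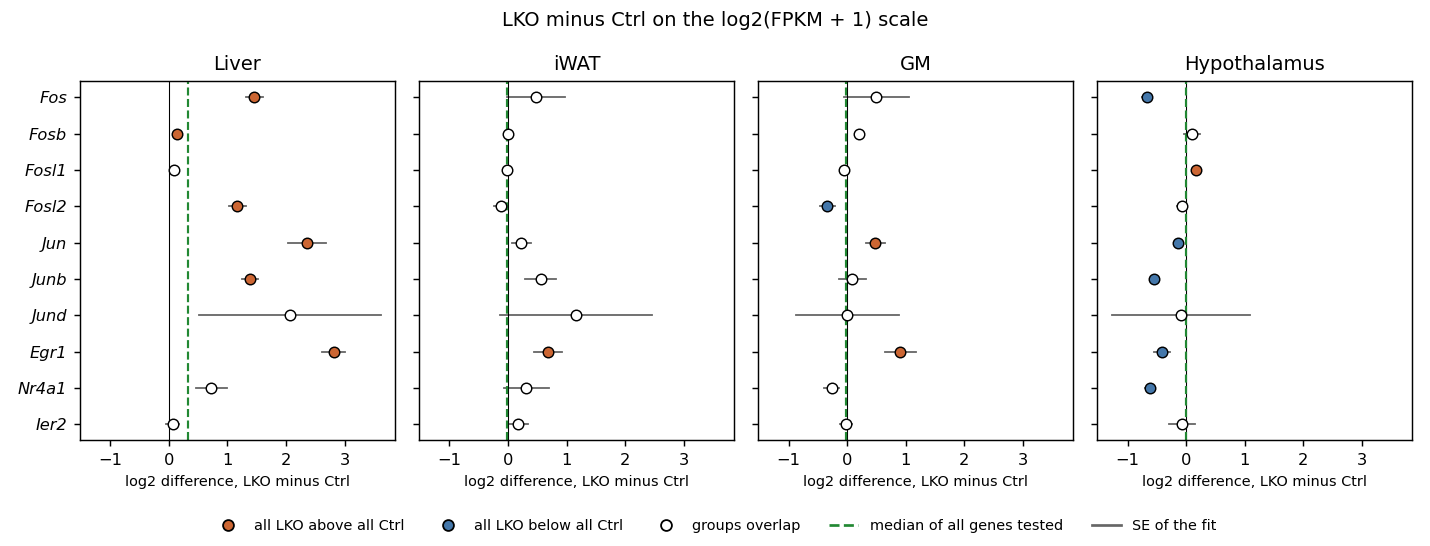
Difference between LKO and Ctrl of each of the 10 genes in each tissue on the log2(FPKM + 1) scale, with the SE of the fit where the gene was tested and the median of all genes as a dashed line. Filled circles mark genes whose groups do not overlap, 6 each in liver and hypothalamus, 3 in GM and 1 in iWAT.

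Set side by side, *Egr1* was above in liver, iWAT and GM, with log2 differences of 2.82, 0.69 and 0.91, and below in hypothalamus, with −0.41. *Jun* was above in liver and GM, at 2.36 and 0.48, and below in hypothalamus, at −0.14. *Fos* and *Junb* were above in liver and below in hypothalamus, and *Fosl2* was above in liver and below in GM. *Ier2* and *Jund* overlapped in all 4 tissues. These opposite directions were part of why the genes were chosen and were not tested.

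*Jund* fell into 2 separate ranges. It was under 10 FPKM in 12 libraries, from 0.643 to 8.47 FPKM, and over 10 FPKM in the other 12, from 14.6 to 104 FPKM. Every one of the 8 groups held libraries of both kinds, and the highest library of a group exceeded the lowest by 6.93 times in GM Ctrl and by 76.9 times in LKO liver. The pooled SD within groups was 2.03 on the log2 scale, against a median of 0.15 over 9022 genes, and only 5 genes had a larger one. High values were found in 1, 3 and 8 of the 8 libraries with replicate number 1, 2 and 3, and in 5 Ctrl and 7 LKO libraries. *Jund* is listed with 2 RefSeq transcripts, and in GENCODE vM21 an antisense gene, *Gm11175*, overlaps it. The library kit does not mark strand, and reads of a gene and its antisense partner cannot be told apart. *Jun* likewise overlaps an annotated antisense gene, *Junos*, and *Fosl1* overlaps *Ccdc85b* on the other strand. The part of these overlaps in the values was not tested.

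**Figure D3:**
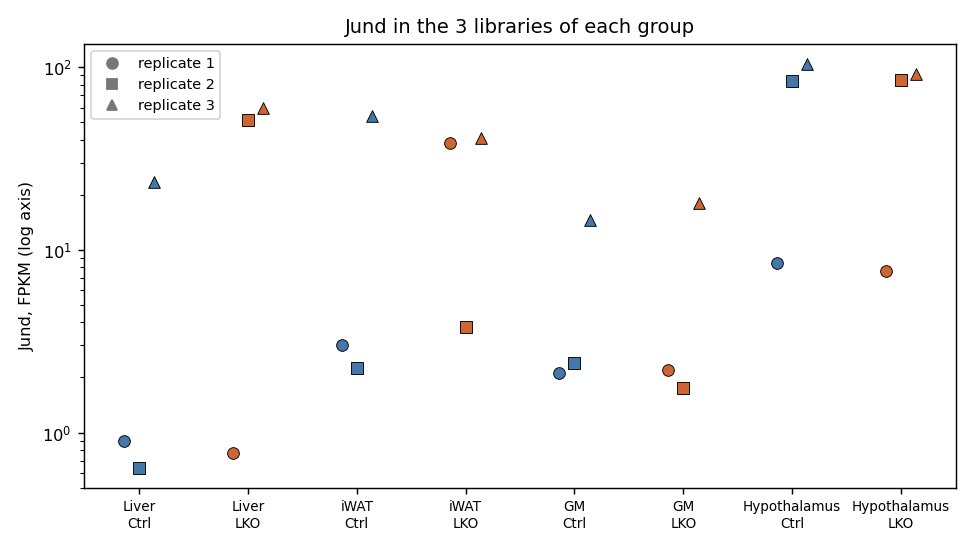
*Jund* in each library, as FPKM on a log axis, by tissue and genotype, with the symbol giving the replicate number. Replicate 3 is high in all 8 groups, at 14.6 FPKM or more.

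The levels of the genes differed between tissues. Averaged over Ctrl and LKO, a measure that does not contain the difference on which they were chosen, 7 of the 8 genes that passed the limit of 1 FPKM in every tissue differed between the 4 tissues with an adjusted p under 0.05 (limma F test over all 24 libraries, Benjamini-Hochberg), with *Jund* as the exception (adjusted p = 0.0692). With the replicate number as a block *Jund* passed as well (limma, adjusted p = 0.00517), as it did with TPM (adjusted p = 0.0344). Nearly every gene differs between these tissues, 99.2% of the 15849 tested, so the order of the tissues is of more interest than the count. Levels are given as the mean FPKM ± SD over 6 libraries of both genotypes. Of the 8 genes, *Fos* reached the limit of 1 FPKM in liver only through LKO.

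*Fos* was highest in hypothalamus at 22.5 ± 6.07 FPKM, followed by GM at 4.05 ± 3.43, iWAT at 3.72 ± 2.29 and liver at 1.33 ± 1.24. Hypothalamus exceeded GM by 2.41 ± 0.32 (SE) on the log2(FPKM + 1) scale (limma, adjusted p = 6.149e-07), and GM and iWAT were not distinguishable in the main fit (adjusted p = 0.976). In 1 of 31 alternatives GM exceeded iWAT with an adjusted p under 0.05. Over the 31, GM minus iWAT ran from −0.27 to 0.71. The liver mean of *Fos* combines 0.241 FPKM in Ctrl and 2.43 FPKM in LKO, and in Ctrl libraries alone hypothalamus exceeded GM by 3.00. *Fosb* followed the same order at the top, with 4.02 ± 0.638 FPKM in hypothalamus and at most 0.298 FPKM on average elsewhere. It passed the limit only through hypothalamus, so no test is given for it. *Egr1* was 26.5 ± 5.23 FPKM in hypothalamus, 10.3 ± 9.46 in liver, 6.18 ± 2.46 in iWAT and 2.203 ± 1.68 in GM. Hypothalamus exceeded liver by 1.88 ± 0.18 (SE; limma, adjusted p = 3.214e-09), while liver and iWAT were not distinguishable in the average of both genotypes (adjusted p = 0.613). In 2 of 31 alternatives iWAT was below liver with an adjusted p under 0.05. In Ctrl libraries alone iWAT was above liver for *Egr1*, with a log2 difference of 0.96, and its liver mean combines 1.81 FPKM in Ctrl and 18.7 FPKM in LKO. Hypothalamus minus liver was then 3.50, and GM and liver were no longer distinguishable, with a log2 difference of −0.37 (limma, adjusted p = 0.104) in place of −1.33.

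*Nr4a1* was highest in muscle, at 93.0 ± 14.3 FPKM in GM against 11.5 ± 3.04 in hypothalamus, 5.50 ± 2.76 in iWAT and 1.66 ± 0.880 in liver. On the log2 scale hypothalamus minus GM was −2.93 ± 0.20 (SE; limma, adjusted p = 1.295e-11), and each neighbouring pair in this order differed. *Fosl2* was highest in iWAT, at 10.9 ± 1.41 FPKM, followed by hypothalamus at 5.65 ± 0.473, GM at 4.13 ± 0.949 and liver at 2.30 ± 1.48. iWAT was above hypothalamus in every alternative run, with hypothalamus minus iWAT at −0.83 ± 0.09 (SE; limma, adjusted p = 3.403e-08), but the order of hypothalamus and GM turned under both scalings across tissues and these tissues were not distinguishable in Ctrl libraries alone (adjusted p = 0.0712).

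*Ier2* ran the other way from *Fos*, with 17.5 ± 1.18 FPKM in liver, followed by iWAT at 10.2 ± 1.95, GM at 4.59 ± 0.383 and hypothalamus at 3.57 ± 1.07. The log2 difference of hypothalamus minus liver was −2.05 ± 0.12 (SE; limma, adjusted p = 2.016e-12), and it kept its direction with an adjusted p under 0.05 in all 31 alternatives. *Jun* was 23.6 ± 6.08 FPKM in GM, 20.6 ± 1.37 in hypothalamus, 16.4 ± 3.39 in iWAT and 13.4 ± 11.02 in liver. GM and hypothalamus were not distinguishable in the main fit (limma, adjusted p = 0.390), nor were hypothalamus and iWAT (adjusted p = 0.0689). Hypothalamus was below GM with an adjusted p under 0.05 in 2 of 31 alternatives, with log2 differences from −1.11 to 0.18 over the 31. It was above iWAT in this way in 3 of 31, with log2 differences from 0.035 to 0.62. The liver mean of *Jun* combines 3.88 FPKM in Ctrl and 22.9 FPKM in LKO, and in Ctrl libraries alone iWAT exceeded liver by 1.80 on the log2 scale (limma, adjusted p = 1.558e-05). *Junb* was 15.1 ± 3.47 FPKM in hypothalamus, 11.2 ± 6.04 in liver, 8.99 ± 3.06 in iWAT and 5.30 ± 1.46 in GM, with liver and iWAT not distinguishable in the main fit (limma, adjusted p = 0.292). In 2 of 31 alternatives iWAT was below liver with an adjusted p under 0.05. Over the 31, iWAT minus liver ran from −0.82 to 0.24 on the log2 scale. In Ctrl libraries alone *Junb* averaged 5.76 FPKM in liver, 7.14 in iWAT and 5.23 in GM, and GM and liver were no longer distinguishable, with a log2 difference of −0.17 (limma, adjusted p = 0.587) in place of −0.81. The order of hypothalamus and liver for *Junb* turned under both scalings across tissues. *Fosl1* averaged at most 0.11 FPKM in any tissue.

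To see whether the genes moved together from library to library within a group, each gene's deviations from its group means were set against the mean deviation of the other 9 over the 24 libraries. None of the 10 correlations had an adjusted p under 0.05 (permutation test within groups, two-sided, Benjamini-Hochberg over 10 relations), and none had an unadjusted p under 0.05. Pearson's r ran from 0.0042 for *Jund* to 0.44 for *Fosl2*, whose unadjusted permutation p was 0.103, r without the 2 libraries farthest from the median 0.21, and Spearman's rho 0.36 (permutation p = 0.142). Because *Jund* varied far more than the others, the relations were computed again without it, an alternative chosen after the data had been seen. *Fos* then had r = 0.51 (permutation p = 0.0122, adjusted p = 0.1099) and rho = 0.51 (permutation p = 0.0307, adjusted p = 0.211). *Junb* had r = 0.54 (permutation p = 0.0390, adjusted p = 0.122) and rho = 0.42 (permutation p = 0.0986, adjusted p = 0.211). *Fosb* had r = 0.45 (permutation p = 0.0407, adjusted p = 0.122) and rho = 0.42 (permutation p = 0.0893, adjusted p = 0.211). Without the 2 libraries farthest from the median of the x axis, r was 0.54 for *Fos*, 0.59 for *Junb* and 0.37 for *Fosb*. Over the 6 libraries of a tissue, *Fos* had r = 0.95 in GM, 0.32 in iWAT, 0.18 in hypothalamus and −0.0037 in liver. No relation passed the correction with or without *Jund*.

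**Figure D4:**
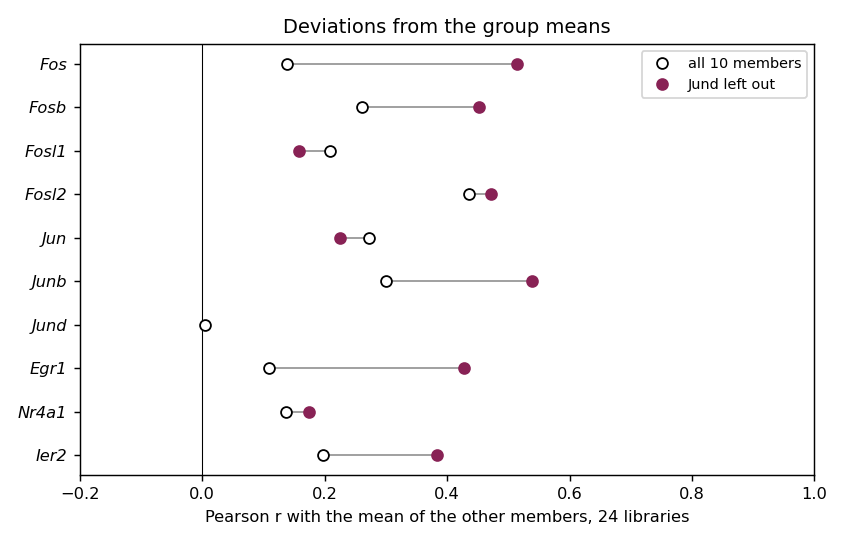
Pearson correlation of each gene with the mean of the others over deviations from the group means in 24 libraries, with all 10 genes (open circles) and with *Jund* left out (filled circles). With all 10 genes no r exceeds 0.44, and without *Jund* the highest is 0.54, for *Junb*.

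Among 9014 genes expressed in all 4 tissues, the 10 whose within-group deviations were most like the mean of the 8 immediate early genes tested in all 4 tissues were *Zfp691*, *Wdfy1*, *Gas8*, *Tbx2*, *Scnm1*, *Sgms1*, *Cdkn1a*, *Kdelc1*, *Hars2* and *Cep89*, with r from 0.81 down to 0.74 over 24 libraries. *Zfp691*, *Wdfy1*, *Cdkn1a* and *Cep89* were also among the 10 most like *Jund* alone, and none of 31 other immediate early genes was among the top 50 of either ranking. Without *Jund*, the ranking was led by *Cyr61* (r = 0.80) and *Sik1* (r = 0.74), both on the list of other immediate early genes, and 4 of the 31 were among the top 50. The median r with the mean of the 7 remaining genes was 0.41 for the 31 other immediate early genes and 0.12 for all genes compared. These correlations describe 24 libraries that share a preparation method and differ in depth, and were not tested.

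To place the 10 genes in their pathway, 45 other immediate early genes, 11 partners of AP-1 and 23 upstream regulators were examined in the same fits. In the liver, 34 of the 45 other immediate early genes were expressed, of which 15 rose and 2 fell past 1.5-fold with an adjusted p under 0.05 (limma, Benjamini-Hochberg), against 23.9% and 3.5% of all genes. Of the 15, *Ier5l*, *Atf3*, *Dusp5* and *Gadd45b* were under 1 FPKM in every Ctrl liver and entered the fit only through LKO, where they had to be higher, and they are named for this after their values were seen. The same holds for 401 of the 2622 genes that rose in all. The median log2 difference of the list was 0.61, beside 0.33 for all genes, or 0.26 and −0.04 after median-ratio scaling. The 5 largest increases were those of *Atf3*, a stress-induced factor of the ATF family, *Myc*, the growth regulator, *Klf6* and *Klf10*, which encode zinc-finger factors, and *Btg2*, an antiproliferative gene. *Btg2* was 2.44, 2.61 and 3.23 FPKM in Ctrl and 14.7, 12.6 and 15.2 FPKM in LKO, with a log2 difference of 2.01 ± 0.13 (SE; limma, adjusted p = 0.0002863). *Atf3* was 0.364, 0.265 and 0.240 FPKM in Ctrl and 8.46, 22.7 and 56.7 FPKM in LKO, with a log2 difference of 4.19 ± 0.57 (SE). *Atf3* thus spread widely over LKO livers whereas *Btg2* did not. *Klf6* differed by 2.38 ± 0.29 (SE; limma, adjusted p = 0.001878), *Klf10* by 2.25 ± 0.36 (SE; limma, adjusted p = 0.004897) and *Myc* by 2.86 ± 0.63 (SE; limma, adjusted p = 0.01312). *Myc* was 0.943, 1.65 and 1.44 FPKM in Ctrl and 4.42, 25.4 and 32.7 FPKM in LKO. Its log2 difference was 3.68 without LKO replicate 1, and without LKO replicate 2 it missed the limit (limma, adjusted p = 0.0572). *Phlda1* fell by 1.43 on the log2 scale (limma, adjusted p = 0.01586) and *Errfi1*, a feedback inhibitor of the EGF receptor, fell by 1.02 (limma, adjusted p = 0.01345). *Phlda1* missed the limit without Ctrl replicate 2 or 3, and *Errfi1* without Ctrl replicate 2.

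Of the AP-1 partners, 8 were expressed in the liver and 4 of them rose, against 23.9% of all genes. *Ddit3*, which encodes CHOP, *Mafk*, *Jdp2* and *Maf* rose by 3.05, 1.76, 0.78 and 0.72 on the log2 scale. After median-ratio scaling *Jdp2* and *Maf* differed by 0.47 and 0.33 and were no longer past 1.5-fold. *Ddit3* was 18.9, 86.2 and 217 FPKM in the 3 LKO livers and 7.24 to 8.03 FPKM in Ctrl. It passed the limit in 11 of 16 alternatives, missing it without any 1 Ctrl library or without LKO replicate 2 (limma, adjusted p up to 0.0702), and its log2 difference was 3.98 without LKO replicate 1 and 2.25 without LKO replicate 3. *Maf* missed it without Ctrl replicate 2 or LKO replicate 2. Of 22 upstream regulators, 6 rose and 1 fell, which is close to the 23.9% and 3.5% of all genes. The 5 largest rises were those of *Mef2a*, *Rps6ka3*, *Mapk3*, *Mef2d* and *Mapk7*, kinases and transcription factors of the pathway from growth factor receptors to immediate early genes, at 0.96, 0.82, 0.80, 0.79 and 0.74. *Mef2a* passed the limit in 6 and *Mef2d* in 9 of 16 alternatives, *Mef2a* in 1 of the 6 that leave out a library. *Egfr*, the receptor for epidermal growth factor, fell by 0.62 (limma, adjusted p = 0.0443), from 78.6, 113 and 119 FPKM in Ctrl to 82.6, 62.3 and 55.4 FPKM in LKO. Its groups overlapped, and it passed the limit in 6 of 16 alternatives. The upstream list had a median difference of 0.31, below the 0.33 of all genes, and after median-ratio scaling 1 gene of the list, *Egfr*, was past the limit.

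In iWAT, GM and hypothalamus none of the 3 lists had a gene past the adjusted limit (limma). Of all genes, 0% passed it in either direction in iWAT and in GM, and in hypothalamus 0.0217% were lower and 0% higher. With an unadjusted p under 0.05 and 1.5-fold, 4 of 37 other immediate early genes were higher and 2 lower in iWAT, against 1.95% and 1.29% of all genes, and 1 of 10 AP-1 partners was lower. In GM, 1 of 35 other immediate early genes was higher and 1 lower, against 0.579% and 0.322% of all genes. In hypothalamus, 1 of 40 was lower and 0 were higher, against 0.166% of all genes in each direction. *Maff* in iWAT was 2.09, 1.80 and 2.37 FPKM in Ctrl and 4.16, 4.52 and 4.21 FPKM in LKO (limma, adjusted p = 0.08521). *Dusp4* was the other of the 2 largest higher values in iWAT, at a log2 difference of 0.82, and *Errfi1*, *Nfil3* and *Batf3* were the lower ones, at −0.96, −0.60 and −0.64. In GM *Nr4a3*, a relative of *Nr4a1*, differed by 1.17 and *Klf2* by −0.76. In hypothalamus *Ctgf* differed by −0.74, and 8 of 40 other immediate early genes had all LKO libraries below all Ctrl libraries against 1 above, beside 4.97% and 4.74% of all genes.

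**Figure D5:**
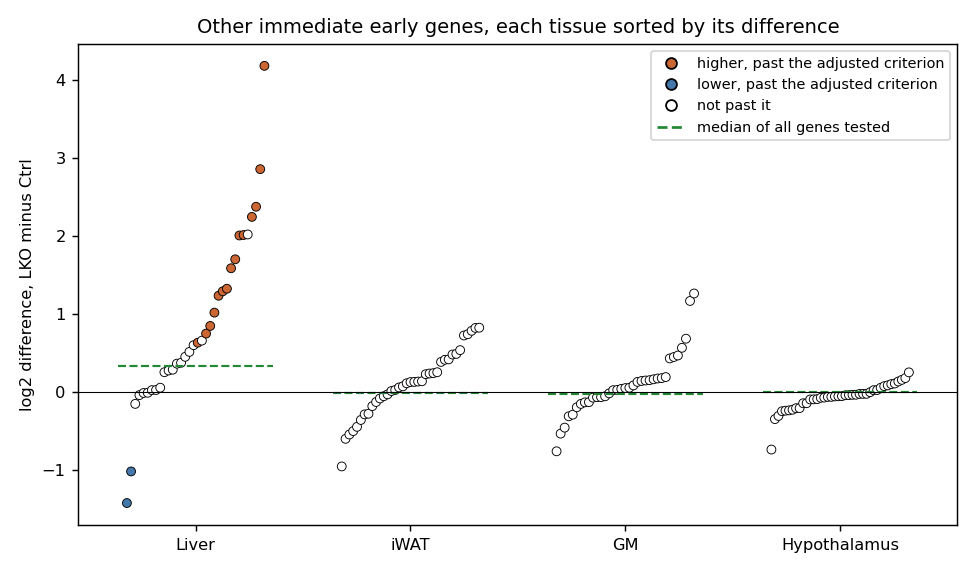
Difference between LKO and Ctrl on the log2(FPKM + 1) scale for each of the other immediate early genes tested in a tissue, sorted within the tissue, with the median of all genes dashed. In liver 15 genes are past the adjusted limit upwards and 2 downwards, and none is past it in the other tissues.

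The genotype effect differed between tissues (limma F test of the interaction over all 24 libraries, adjusted p under 0.05) in 22 of 44 other immediate early genes tested, against 33.5% of all genes. In alternatives chosen after seeing the data, it did so in 12 under quantile normalization and in 17 under median-ratio scaling, both over all 24 libraries. The share of all genes was not computed under these, so these counts cannot be set against a background. This test was not made for the 10 genes themselves, which had been chosen on that contrast.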

How the data were processed

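RNA from 24 samples had been extracted with Trizol, made into TruSeq RNA v2 libraries without strand information and sequenced as 100 nt paired ends. The deposited FPKM values, scaled by the authors for length and depth, come from a joined table of 24532 NCBI genes on mm10, and the deposited TPM and coverage values (signal, mean reads per base) from a table for each library in the StringTie layout. The submitters' processing notes name FastQC 0.11.5, Trimmomatic 0.32, HISAT2 2.0.5, Bowtie2 2.2.6, STAR 2.5.2b and StringTie 1.3.3b, without their order. Depth in reads is not given in the sources used here. FPKM was analysed as log2(FPKM + 1), which understates the change of low genes, with limma 3.58.1 (trend) in R 4.3.3, for genes of at least 1 FPKM in at least 3 of the 6 libraries of a tissue, and of at least 3 of 24 across tissues. SE are those of the fit. Within-group correlations used 100000 permutations. The fits were tested on simulated data. Libraries sharing a replicate number were checked: in none of the 4 tissues did all 3 Ctrl and LKO pairs deviate together (r over 0.1), and between tissues all 3 did so in 1 of 12 comparisons, LKO GM with LKO hypothalamus. By highest correlation, each of the 6 libraries matched its own number for liver with iWAT, in Ctrl and in LKO. In LKO this also held for iWAT with GM and for GM with hypothalamus. Elsewhere 2 to 4 of the 6 did so. The main tests used no block and treat libraries of the same number as unlinked, and the block is an alternative. The 10 genes and the gene lists were chosen with earlier results of these data known, and 1 gene of the AP-1 partner list is not reported here. Named from the lists were the 5 largest changes in each direction past the adjusted limit per tissue, otherwise the 2 largest with an unadjusted p under 0.05, and the 10 genes most like, within groups, the mean of the 8 immediate early genes tested in all 4 tissues. Alternatives changed the pseudocount, filter, scaling, unit, fit and libraries.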

Additional observations from a re-analysis of the deposited data

Results flagged for a closer look

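Several of the 10 genes had all LKO libraries above all Ctrl libraries in one tissue and below in another. Between liver and hypothalamus, the log2 differences of LKO minus Ctrl were 3.23 apart for *Egr1*, 2.496 for *Jun*, 2.14 for *Fos* and 1.94 for *Junb*. Between GM and hypothalamus they were 1.32 apart for *Egr1* and 0.61 for *Jun*, and between iWAT and hypothalamus 1.10 for *Egr1*. Between liver and GM they were 1.51 apart for *Fosl2*. These differences were not tested.

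Of the 44 other immediate early genes tested, 22 had an LKO effect that differed between tissues, against 33.5% of all genes. Under quantile normalization over all 24 libraries 12 did. Among the genes named above, the adjusted p of the interaction (limma) was 0.00101 for *Atf3*, 0.00224 for *Myc*, 2.23e-05 for *Klf6*, 0.000376 for *Klf10*, 6.28e-06 for *Btg2*, 0.015 for *Phlda1*, 0.0429 for *Errfi1*, 0.00422 for *Maff*, 0.0126 for *Nfil3*, 0.0302 for *Nr4a3* and 0.00175 for *Ctgf*. For *Gadd45b*, *Ier5l*, *Dusp5* and *Sik1* it was 1.741e-06, 0.0017, 0.0151 and 0.0390. *Klf2*, *Dusp4* and *Cyr61*, also named above, did not pass, with an adjusted p (limma) of 0.0645, 0.139 and 0.153. Of the AP-1 partners the adjusted p of the interaction (limma) was 0.00118 for *Ddit3*, 0.000691 for *Mafk*, 0.00603 for *Jdp2*, 0.0147 for *Maf* and 0.0307 for *Batf3*. Of the upstream regulators it was 0.00651 for *Mef2a*, 0.00121 for *Rps6ka3*, 0.00127 for *Mapk3*, 0.00255 for *Mef2d*, 0.000137 for *Mapk7* and 0.0248 for *Egfr*. Most of these genes were named for a large change in a single tissue, and the interaction contains that change. Small p-values were thus favoured by the naming and are given as a description.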

How the results depend on the processing

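No gene of the 10 that separated the genotypes in a tissue as reported changed sign there in any alternative run. The number of the 10 above in iWAT was 2 (*Junb* and *Egr1*) under median-ratio scaling, and 2 under quantile normalization, and the number above in GM was 1 under each. Median-ratio scaling put 1 gene, *Ier2*, below in liver, and the deposited TPM left 3 below in hypothalamus. Leaving out 1 library at a time gave 6 to 9 above in liver (9 without LKO replicate 1), 1 to 3 above in iWAT, 2 to 4 above and 1 to 2 below in GM (4 above without Ctrl replicate 1), 0 to 1 below in iWAT (1 without LKO replicate 3) and 5 to 6 below in hypothalamus. 

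The other immediate early genes called in liver, 17 in all, came to 11 where the mean had to reach 5 FPKM and to 11 to 17 with 1 library left out (11 without LKO replicate 2). AP-1 partners called in liver, 4 in all, came to 2 under median-ratio scaling, quantile normalization, ordinary variances and a 2-fold limit, and to 2 to 4 with 1 library left out (2 without Ctrl replicate 2 or LKO replicate 2). Upstream regulators, 7 in all, came to 1, 0, 3 and 0 under these, and to 3 to 8 with 1 library left out (3 without LKO replicate 2, 4 without Ctrl replicate 2 or 3). With an unadjusted p, 6 other immediate early genes in iWAT, 2 in GM and 1 in hypothalamus and 1 AP-1 partner in iWAT were called, and a fit of all 24 libraries called 2 other immediate early genes in iWAT. Those with an effect that differed between tissues numbered 12 under quantile normalization and 16 to 27 with 1 library left out, alternatives chosen after seeing the data.

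Over all genes, 3006 were called in liver, of which 87.2% were higher. The count was 1776 with a mean of at least 5 FPKM, 1925 under median-ratio scaling with 51.3% higher, 1675 under quantile normalization with 55.6% higher, 1499 with ordinary variances, 1067 at 2-fold and 1343 to 3907 with 1 library left out (1343 without LKO replicate 2). In iWAT, 14 were called under median-ratio scaling and under quantile normalization, 317 in the fit of all 24 libraries, 399 with an unadjusted p and 0 to 106 with 1 library left out (106 without LKO replicate 1). In GM the counts were 22 in the fit of all 24 libraries, 98 unadjusted and 0 to 13 with 1 library left out (13 without LKO replicate 1). In hypothalamus, where 3 were called, they were 0 without a filter, 1 with TPM, 0 with ordinary variances, 9 in the fit of all 24 libraries, 0 with the replicate block, 46 unadjusted and 0 to 9 with 1 library left out. The replicate block gave 3031 calls in liver and 18 other immediate early genes. Across tissues all 8 genes that passed the limit of 1 FPKM in every tissue then differed, *Jund* included. It moved no other count of calls by over 1.5 times.

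Across tissues, hypothalamus minus GM for *Fosl2* turned to −0.44 under median-ratio scaling and −0.84 under quantile normalization, and hypothalamus minus liver for *Fosl2* to −0.013 under the latter. Hypothalamus minus liver for *Junb* turned to −0.28 under each, and GM minus iWAT for *Junb* to 0.083 and 0.10. iWAT minus liver for *Egr1* turned to 0.96 in Ctrl libraries. Of the 8 genes, 7 to 8 differed between tissues with 1 library left out. The within-group correlation of *Jun* passed the correction without liver Ctrl replicate 2, and 0 to 1 did so over the libraries left out. The causes were not tested.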
